A study of Mus musculus with 8 samples.

Results

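The SNARE proteins and the factors that take SNARE complexes apart were compared between 2 sorted fractions of mouse esophageal epithelium. The members were taken by gene symbol and are the numbered syntaxins (Stx) and VAMPs, Snap23, Snap25, Snap29 and Snap47, the Golgi and endoplasmic reticulum SNAREs, and Nsf with its adaptors Napa, Napb and Napg. This gave 41 of the 55276 genes in the table. The cells came from the peeled esophageal epithelium of C57BL6 mice, 14 to 15 weeks old, with no treatment or allele named in the labels beyond the stain itself. Live cells (negative for the dead-cell dye DAPI) that carried integrin beta-1 at their surface were sorted on Cyto-ID, a dye that stains autophagic vesicles, into a Low and a High fraction. RNA of both fractions was sequenced in bulk from 4 animals, named Female1, Female2, Male1 and Male2, so that each group held 4 libraries (n = 4) and each animal gave 1 library of each. The question the comparison answers is which of these genes differ in mRNA level between cells with weak and strong Cyto-ID staining.

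SNARE proteins drive the fusion of a transport vesicle, endosome or autophagosome with its target membrane. Helices from a vesicle SNARE, usually a VAMP, and from target-membrane SNAREs, a syntaxin with partners such as SNAP-23 or a Vti1 protein, zip into a 4-helix bundle that pulls the membranes together. The ATPase NSF, held to the bundle by SNAP adaptors (encoded by Napa, Napb and Napg and unrelated to the SNAP-25 family), then separates the helices for another round. Each compartment has its own set. Syntaxin 17 or YKT6 on the autophagosome pairs with SNAP-29 and a lysosomal SNARE, and syntaxins 3 and 4 with SNAP-23 receive secretory vesicles at the surface of epithelial cells.

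Library totals ran from 26285150 to 28599954 counts in Low and from 27486049 to 29301054 in High. The sorted cells expressed keratinocyte genes, and the fractions differed in the levels of marker genes. All 9 basal keratinocyte markers were lower in High (summed level 20970 to 24875 CPM, counts scaled to a common library size, in Low and 2775 to 4476 in High), although the labels call both fractions basal cells. All 10 suprabasal markers were higher (8880 to 26005 CPM in Low and 143182 to 245289 in High), and all 8 proliferation markers were lower. In these bulk libraries a change in the mix of cells and a change of RNA per cell cannot be told apart. Both animals numbered 2 stood apart. In Female2, 10 stomach marker genes summed to 19.8 CPM in Low Female2 and 117 CPM in High Female2, against at most 1.29 and 1.39 CPM in the other Low and High libraries. In Male2 the median log2 difference, High minus Low, was -3.34 for leukocyte, -3.72 for fibroblast, -3.33 for endothelial and -2.94 for muscle markers, against -0.92 to 0.64 in the other animals. Member counts are therefore also given without each of these animals. The scaling factors that edgeR applies (trimmed mean of M values, TMM) were 1.16 to 1.30 in Low and 0.679 to 0.944 in High. With library totals alone as the scale, the median High-against-Low difference over all genes fell by 0.55 on the log2 scale, and results are given with both scalings where the choice matters.

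Of the 40 SNARE genes with enough counts to test, 20 were higher in High, 3 were lower and 17 did not pass the threshold (edgeR quasi-likelihood test, adjusted p under 0.05). Over all 17344 genes tested, 23.4% were called higher, 25.3% lower and 48.7% in either direction. The 20 higher members make up a larger share than the background and the 3 lower ones a smaller share. That fit held sex and not the animal. With the animal as a replicate block, the paired fit, 23 members were higher and 4 lower, beside 25.4% and 28.5% of all genes. Without the block, the median log2 fold change of the 40 members was 0.46, against -0.09 for all genes tested. Animal by animal, the median High-minus-Low difference of the members was 0.36 (Female1), 0.52 (Female2), 0.46 (Male1) and 0.43 (Male2), positive in each. High and Low libraries did not overlap for 24 members (21 higher and 3 lower in High), beside 48.6% of all genes tested. With total counts in place of TMM the median of the members was -0.09, reversed in sign, with 8 members higher and 11 lower, beside 12.6% of all genes called higher and 49.1% lower, and a median of all genes of -0.64. The 8 that stayed higher were Stx19, Snap29, Napa, Stx11, Ykt6, Stx8, Vamp2 and Vti1b, and the 11 lower were Stx2, Stx1a, Use1, Stx3, Napb, Stx16, Bnip1, Gosr1, Stx18, Stx4a and Snap23. The members' median exceeded that of all genes by 0.55 with either scaling. A change of scaling shifts all genes about alike, so this agreement was fixed in advance and is not further support. Without animal Female2 20 members were higher and 4 lower, and without animal Male2 19 were higher and 3 lower, alternatives chosen after seeing the data. Summed over all 41 members, the share of raw counts was 0.146 to 0.150% in Low and 0.147 to 0.162% in High.

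The 6 roles were described separately. The median log2 fold change was 0.91 for the SNAREs of endosomes, lysosomes and autophagosomes, 0.70 for the disassembly factors, 0.50 for the VAMPs of secretory and recycling vesicles, 0.50 for the SNAREs of the trans-Golgi network, 0.21 for the target-membrane SNAREs of the cell surface and 0.18 for those of the endoplasmic reticulum and Golgi. Differences between roles were not tested. Under total-count scaling these medians were 0.34, 0.12, -0.06, -0.08, -0.31 and -0.38 in the same order, so that the last 4 changed sign. The median of the 4 vesicle VAMPs tested also moved with the filter on low counts, to 0.04 over 5 genes without one and 0.89 when each library had to hold 10 counts or more. The surface median was 0.09 without Low Female1 or without High Female1, about 0.37 to 0.38 without animal Female2 or Male2, and -0.02 in the 2 animals numbered 2. That of the endoplasmic reticulum and Golgi was 0.10 without Low Female2, 0.08 from Female1 and Male1 alone and 0.36 from Female2 and Male2 alone.

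**Figure D1:**
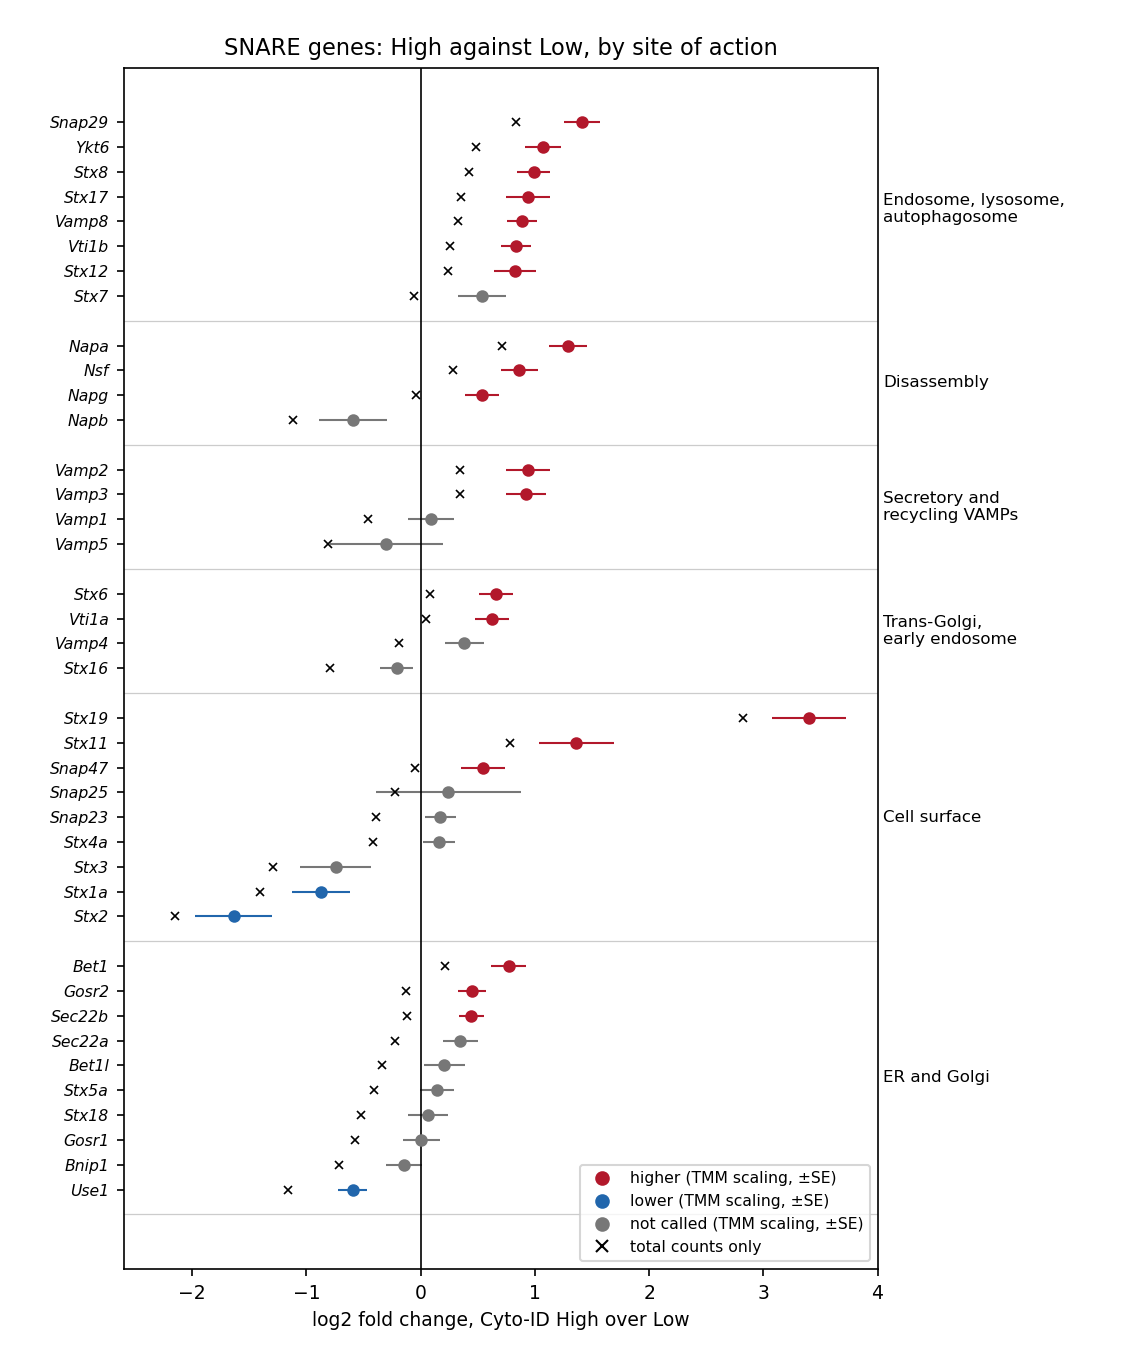
Log2 fold change of tested SNARE genes, High against Low, with the standard error, ordered within 6 roles (x axis, log2 scale; points, estimates with TMM scaling over all 8 libraries; colours, called higher, lower or not called; crosses, estimates with total counts only, which lie to the left of the points). The 20 genes called higher lie to the right of zero, Stx19 the farthest at 3.40, and Stx2, Stx1a and Use1 are called lower.

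The SNAREs of endosomes, lysosomes and autophagosomes were higher in High in 7 of 8 cases, beside 23.4% of all genes. The remaining gene, Stx7, was positive in all 4 animals without passing the test. With total counts only, Snap29, Ykt6, Stx8 and Vti1b kept their calls, beside 12.6% of all genes called higher. Snap29, which encodes the soluble SNARE that bridges autophagosomal and lysosomal partners, had the largest difference among the 8. In Low it was at 17.0 CPM (Female1), 19.3 (Female2), 17.5 (Male1) and 22 (Male2), and in the High libraries of the same animals at 41.8, 58.5, 46.6 and 55.2 CPM. Every High library was above every Low library. Snap29 rose 2.67-fold (log2 fold change 1.41, SE 0.16, adjusted p = 6.89e-05). Its exons overlap those of Pi4ka on the other strand by 60 bases, and whether counting used strand is not given in the sources used here.

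Stx17 encodes the syntaxin recruited to completed autophagosomes. Its level was 17.7, 24.2, 20.8 and 20.4 CPM in Low (libraries in the same order here and below) and 29.8, 49.7, 34.7 and 45.3 CPM in High. All High libraries were above all Low ones, Female2 being highest in both fractions. Stx17 rose 1.92-fold (log2 fold change 0.94, SE 0.19, adjusted p = 0.00247).

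Ykt6 encodes a lipid-anchored SNARE that acts on autophagosomes and at the Golgi. It measured 78.3, 74.7, 75.4 and 88.2 CPM in Low and 140, 179, 146 and 200 CPM in High. The fractions were well apart in every animal. Ykt6 rose 2.10-fold (log2 fold change 1.07, SE 0.16, adjusted p = 0.000374).

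Vamp8, the endosomal and lysosomal VAMP that completes the complex of Stx17 and Snap29, stood at 15.7, 15.9, 13.2 and 16.7 CPM in Low. In High it stood at 30.0, 26.7, 27.5 and 29.5 CPM, with little spread among the 4 animals (SD 1.58). Vamp8 rose 1.85-fold (log2 fold change 0.89, SE 0.13, adjusted p = 0.000418). The 3 genes of the Stx17, Snap29 and Vamp8 complex were thus all called higher with TMM scaling. With total counts only, Snap29 kept its call (adjusted p = 0.000498), and Stx17 and Vamp8 had adjusted p = 0.0783 and 0.0814.

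Stx7, Stx8 and Vti1b encode the late endosomal set that pairs with Vamp8. Stx8 was at 12.9, 12.5, 10.6 and 14.4 CPM in Low and at 22.1, 26.6, 24.0 and 27.4 CPM in High. Vti1b was at 37.6, 37.9, 33.5 and 39.0 CPM in Low and at 61.2, 73.9, 58.1 and 70.5 CPM in High. Neither gene's groups overlapped, and both rose, Stx8 1.98-fold (log2 fold change 0.99, SE 0.15, adjusted p = 0.000429) and Vti1b 1.78-fold (0.83, SE 0.13, adjusted p = 0.000574). Of the 1612 exon bases of Vti1b, 285 overlap exons of Arg2 on the other strand.

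Stx7 behaved less evenly across animals. It was at 41.2, 57.1, 42.6 and 56.4 CPM in Low and at 52.3, 91.1, 60 and 82.2 CPM in High. High Female1 lay below 2 of the Low libraries, Female2 and Male2, so the groups overlapped, yet High exceeded Low within each animal. Its log2 fold change of 0.53 (SE 0.21) had an adjusted p = 0.0604. With the animal as a replicate block, the paired fit, the adjusted p was 0.00469. Stx7 was called higher in 10 of 21 alternatives, among them DESeq2 (adjusted p = 0.0226), its size factors (0.0410), no covariate (0.0448) and no filter on low counts (0.0313). With total counts only the log2 fold change was -0.06 (adjusted p = 0.774).

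Stx12, the syntaxin of recycling endosomes also called syntaxin 13, completed the role. It ranged from 57.9 to 66.9 CPM in Low and from 83.8 to 142 CPM in High, without overlap (log2 fold change 0.82, SE 0.18, adjusted p = 0.00400, and 0.155 with total counts only). The 3 genes of this role with the highest level per exon length were Ykt6, Vti1b and Stx12 in both fractions.

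**Figure D2:**
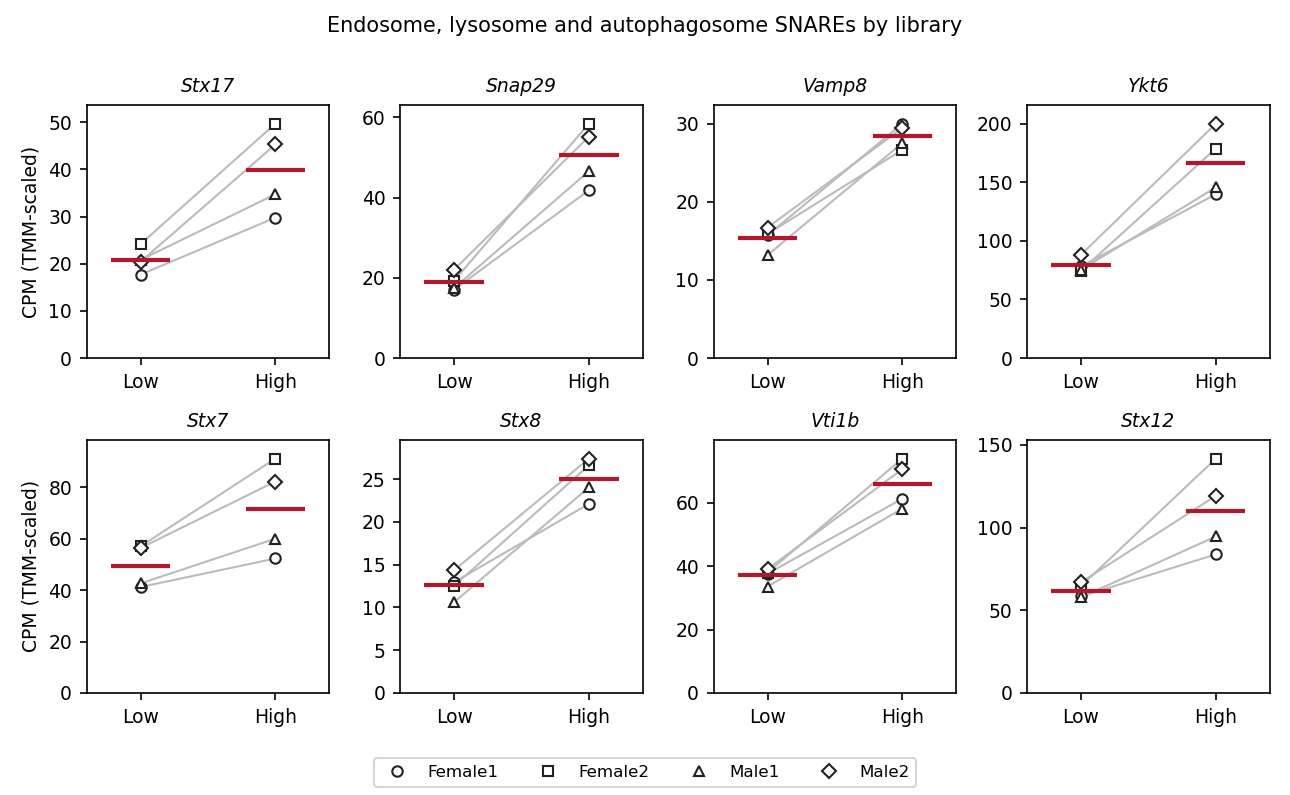
TMM-scaled CPM of the 8 SNARE genes of endosomes, lysosomes and autophagosomes in Low and High libraries (y axes start at 0; symbols, the 4 animals; grey lines join the libraries of 1 animal; red bars, group means). Each line rises from Low to High, and only Stx7 has overlapping groups, with High Female1 at 52.3 CPM below Low Female2 at 57.1 CPM.

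The disassembly machinery was called higher for 3 of its 4 genes, beside 23.4% of all genes. With total counts only Napa alone was called higher, beside 12.6% of all genes. Napa, which encodes alpha-SNAP, the main adaptor that recruits NSF, was at 102, 82.2, 104 and 102 CPM in Low and at 205, 216, 218 and 323 CPM in High. High Male2 was far above the other High libraries and Low Female2 below the other Low ones, and the groups were apart. Napa rose 2.44-fold (log2 fold change 1.29, SE 0.17, adjusted p = 0.000173), and with total counts only its log2 fold change was 0.71 (adjusted p = 0.000627).

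Nsf, the ATPase itself, was at 21.8, 27.8, 24.7 and 27.1 CPM in Low and at 37.6, 51.4, 40.9 and 54.9 CPM in High. The High values were all above the Low ones. Nsf rose 1.82-fold (log2 fold change 0.86, SE 0.16, adjusted p = 0.00153), and with total counts only it had an adjusted p = 0.0766. Napg, which encodes gamma-SNAP, was at 39.1, 36.8, 42.4 and 37.4 CPM in Low and at 46.9, 69.0, 52.9 and 57.2 CPM in High. It rose 1.45-fold with TMM scaling (log2 fold change 0.54, SE 0.15, adjusted p = 0.0131) but had a log2 fold change of -0.04 with total counts (adjusted p = 0.805). Napb, the brain-enriched beta-SNAP, had 16 to 86 counts per library and a log2 fold change of -0.59 (SE 0.30, adjusted p = 0.135), with High below Low in all 4 animals. With total counts only its adjusted p was 0.0200.

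The proportions of the 3 adaptors need no scaling between libraries. Counts per kilobase of exon were divided by their sum over Napa, Napb and Napg in each library. Napa made up 84.2% ± 1.2 (SD, n = 4) in Low and 90.1% ± 2.2 in High. Napg made up 14.9% ± 1.1 in Low and 9.59% ± 2.1 in High, and Napb 0.94% ± 0.24 and 0.29% ± 0.12. For each of the 3 adaptors the Low and High libraries did not overlap. The shares are parts of a whole, so a larger share of Napa lowers the others. Napg itself was called higher with TMM scaling.

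Promoter sequence was examined because most called members were higher together. The 250 bases before the RefSeq start (build GRCm38.p6) were available for 36 of the 41 members, as 43 promoters, and were searched on both strands for 4 motifs. CACGTG, the E-box at the core of the CLEAR element of lysosomal genes, was found in 5 of the 43 (11.6%), of Bnip1, Napa, Nsf, Stx6 and Vamp4, and in 6.02% of all 32851 promoters. AACCGGTT, a Grainyhead-like site, was in none of the 43 and in 0.116% of all. TGANTCA, the AP-1 site, was in 3 of the 43, of Gosr2 and Vamp9, and in 6.75% of all, and CCGGAAGT, an Ets site, was in 1, of Vti1a, and in 2.88% of all. AACCGGTT and CCGGAAGT share some letters, and none of the 4 motifs contains another. The Napa window held 3 copies of CACGTG, which begin 185, 136 and 29 bases before the start, and 20 of the 32851 promoters (0.0609%) held at least 3. Nsf held 1 copy, 174 bases before its start. The stretches below show the enzyme and its main adaptor together, 5′ to 3′ on the gene's strand, with the E-box in capitals. The Napa stretch is chr7:16098330-16098457 on the plus strand and stops before the GENCODE start, so it holds 2 of the 3 copies. The Nsf stretch is chr11:103954057-103954306 on the minus strand.
Napa: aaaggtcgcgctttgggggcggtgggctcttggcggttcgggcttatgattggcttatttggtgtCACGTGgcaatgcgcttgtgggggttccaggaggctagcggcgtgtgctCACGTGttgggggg
Nsf: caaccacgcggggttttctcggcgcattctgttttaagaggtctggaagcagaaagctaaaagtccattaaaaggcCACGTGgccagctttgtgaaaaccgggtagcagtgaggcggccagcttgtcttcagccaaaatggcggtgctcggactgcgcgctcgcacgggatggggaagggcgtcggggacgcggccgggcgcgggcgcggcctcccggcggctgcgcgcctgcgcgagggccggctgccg
These matches describe the letters in the window and are not evidence of binding.

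The VAMPs of secretory and recycling vesicles were called higher for Vamp2 and Vamp3. Vamp2, the VAMP of regulated exocytosis in neurons and secretory epithelia, was at 28.3, 26.1, 24.8 and 27.1 CPM in Low and at 38.2, 55.4, 42.2 and 69.1 CPM in High. All High libraries were above the Low ones, with a wider spread in High (SD 14.0 against 1.5 CPM). Vamp2 rose 1.92-fold (log2 fold change 0.94, SE 0.19, adjusted p = 0.00252).

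Vamp3, or cellubrevin, which serves recycling endosomes in most cell types, was at 67.7, 66.8, 67.2 and 88.5 CPM in Low. Its High values were 112, 174, 123 and 141 CPM. Low Male2 was above the other Low libraries but under every High library. Vamp3 rose 1.90-fold (log2 fold change 0.92, SE 0.18, adjusted p = 0.00200), and with total counts only its adjusted p was 0.0638. Vamp1 (3.86 to 6.53 CPM in Low and 4.27 to 5.39 in High) and Vamp5 (at most 15 counts in any library) did not pass the test, and with total counts only the log2 fold change of Vamp1 turned from 0.09 to -0.46 (adjusted p = 0.130). Vamp9, with 3 counts in all 8 libraries together, was not tested.

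The target-membrane SNAREs of the cell surface held 3 genes called higher, 2 lower and 5 not called of 10, shares near the 23.4% and 25.3% of all genes. Stx19, which encodes a syntaxin without a membrane-spanning segment and with a cysteine-rich tail, had the largest difference of all 40 genes tested. It was at 1.94, 2.88, 1.15 and 3.56 CPM in Low (37 to 118 counts) and at 22.2, 31.8, 21.9 and 25.2 CPM in High (490 to 730 counts). The lowest High value was far above the highest Low value. Stx19 rose 10.5-fold (log2 fold change 3.40, SE 0.32, adjusted p = 3.18e-05). The gene lies at chr16:62814676-62824346 on the plus strand (GRCm38, GENCODE M21). The 250 bases before its start, chr16:62814426-62814675 in GRCm38.p6 from RefSeq, are shown because no other member changed as much. They are less rich in G and C (39.2%) than the printed stretches of Napa (61.7%) and Nsf (66.0%), and the 4 motifs named above are not among these letters.
Stx19: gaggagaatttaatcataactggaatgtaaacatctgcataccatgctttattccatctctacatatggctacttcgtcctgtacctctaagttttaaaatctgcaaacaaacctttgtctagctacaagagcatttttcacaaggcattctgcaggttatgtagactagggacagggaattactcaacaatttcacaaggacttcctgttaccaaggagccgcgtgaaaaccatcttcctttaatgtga

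Stx11 encodes another syntaxin that is held to the membrane by lipid anchors and is best known from the release of lytic granules by immune cells. It was at 33.6, 11.9, 34.7 and 49.2 CPM in Low and at 56.6, 83.4, 69.7 and 111 CPM in High. Low Female2 was far below the other Low libraries, Male2 was highest in both fractions, and the groups did not overlap. Stx11 rose 2.57-fold (log2 fold change 1.36, SE 0.32, adjusted p = 0.00615). Leukocyte markers, 10 of 12 of which were tested, summed to 62.7 to 106 CPM in Low and 25.9 to 124 CPM in High, with Cd68 higher and Cd207 lower. Ptprc, the pan-leukocyte marker, had 125 to 221 counts in Low and 170, 46, 152 and 4 counts in High. The part of leukocytes in the Stx11 values was not tested.

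Stx3 and Stx4a, surface syntaxins well known from epithelia, were not called. Stx3, the syntaxin of apical membranes, was at 75.6, 22.8, 56.8 and 46.7 CPM in Low and at 36.1, 25.0, 27.5 and 31.8 CPM in High. Low Female2 lay below every High library while the other 3 Low libraries lay above them all. Its log2 fold change of -0.74 (SE 0.31) had an adjusted p = 0.0763. Without Low Female2 the log2 fold change was -0.99 with an adjusted p = 0.00273, without both libraries of that animal it was -0.87 (adjusted p = 0.00206), and with the paired fit of the replicate block it was -0.64 (adjusted p = 0.0297). With library totals as the scale it was -1.29 (adjusted p = 0.00801), and without a filter on low counts -0.78 (adjusted p = 0.000163). Leaving out Low Female1, the highest library, gave -0.37 (adjusted p = 0.348), and the 2 animals numbered 2 alone gave -0.21 (adjusted p = 0.439). The call of Stx3 thus changed with the animals kept and with the fit.

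Stx4a, the basolateral syntaxin, was at 47.7, 51.8, 52.4 and 54.8 CPM in Low and at 52.5, 55.5, 50.7 and 73.3 CPM in High. The groups overlapped, and the log2 fold change of 0.16 (SE 0.14) had an adjusted p = 0.379. With total counts only it was -0.42 (adjusted p = 0.00635).

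Snap23, the widely expressed partner of both syntaxins, was at 26.2, 31.2, 29.2 and 28.8 CPM in Low and at 30.0, 38.9, 31.9 and 29.4 CPM in High. Its groups overlapped as well (log2 fold change 0.17, SE 0.14, adjusted p = 0.342), and with total counts it was -0.39 (adjusted p = 0.0405). Snap47, a relative whose main compartment is less settled, ran from 17.1 to 25.1 CPM in Low and from 25.2 to 41.2 CPM in High (log2 fold change 0.55, SE 0.19, adjusted p = 0.0392). Its call was lost without Low Female1, Low Male1, Low Male2, High Female2 or High Male2, with adjusted p from 0.0717 to 0.126, and without both libraries of Male2 (adjusted p = 0.102). Under total counts its log2 fold change was -0.05 (adjusted p = 0.809).

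Stx1a, the neuronal syntaxin also found in secretory cells, was at 8.36, 4.78, 8.87 and 6.03 CPM in Low and at 4.2, 2.61, 4.72 and 3.81 CPM in High. The groups were narrowly apart, with Low Female2 at 4.78 CPM just above High Male1 at 4.72 CPM. Stx1a fell (log2 fold change -0.87, SE 0.26, adjusted p = 0.0177). That call was lost without Low Female1, Low Male1 or High Female2, with adjusted p from 0.0557 to 0.0718.

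Stx2, or epimorphin, is named outside the rule for genes with values in every library because its mean was under 5 CPM, and it was chosen after its values were seen. It had 155, 237, 182 and 164 counts in Low and 70, 29, 57 and 17 in High, and fell by 1.64 on the log2 scale (SE 0.33, adjusted p = 0.00261). Snap25, the neuronal SNAP, had 24, 51, 33 and 42 counts in Low and 67, 16, 49 and 3 in High. Snap25 was not called (log2 fold change 0.24, adjusted p = 0.792, and -0.23 with total counts only). In the 2 animals numbered 1 alone it was called higher (1.37, adjusted p = 0.00303), in the 2 numbered 2 its log2 fold change was -1.78 without passing the test, and leaving out 1 library gave -0.32 to 0.65. In both genes the High libraries ranked from Female1 through Male1 and Female2 down to Male2. The summed level of 16 neuron and glia markers ranked the same way in High, at 33.6, 23.7, 14.1 and 6.32 CPM, with 12.8 to 19.7 CPM in Low and 0 of its 12 tested genes called by edgeR (0 also at an unadjusted p under 0.05). The sum of 7 endocrine cell markers in High (7.32, 4.80, 2.26 and 0.566 CPM) and of 10 fibroblast markers (496, 358, 169 and 57.8 CPM) had this order too, with Dcn and Fbln1 called lower. So did the sums of leukocyte (124, 86.3, 47.8 and 25.9 CPM), endothelial (63.3, 46.6, 35.1 and 23.7 CPM), muscle (71.6, 47.3, 24.4 and 5.86 CPM) and proliferation markers (219, 169, 118 and 90.3 CPM) in High. The part of such cells in these SNARE values was not tested.

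**Figure D3:**
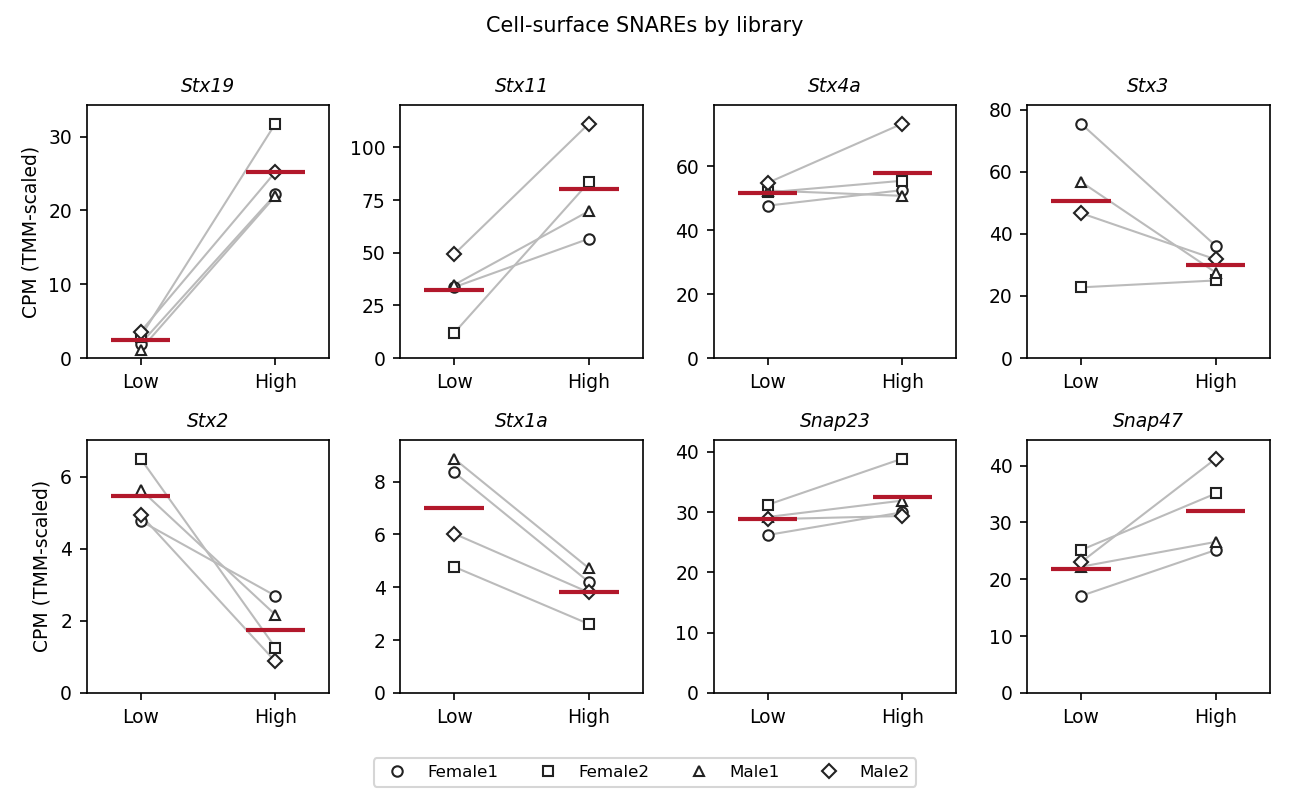
TMM-scaled CPM of 6 surface syntaxins, Snap23 and Snap47 by library (y axes start at 0; symbols, the 4 animals; grey lines join the libraries of 1 animal; red bars, group means). Stx19 and Stx11 lie higher in every High library than in any Low one, while for Stx3 the Low Female2 library at 22.8 CPM lies below all High libraries.

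The make-up of the surface set was also described without any scaling between libraries, as each gene's share of the counts per kilobase of exon summed over its family. Among the 7 surface syntaxins, Stx4a made up 51.8% ± 10.0 (SD, n = 4) in Low and 41.0% ± 1.7 in High. Stx3 made up 19.9% ± 7.0 and 9.0% ± 2.2. Stx11 made up 17.1% ± 6.6 in Low and 31.4% ± 4.3 in High, and Stx19 2.03% ± 1.0 and 15.2% ± 2.7. Stx11 and Stx19 together were thus a larger part of the set in each High library than in any Low one. The Low and High ranges did not overlap for Stx4a, Stx11, Stx19, Stx1a and Stx2, and they overlapped for Stx3.

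In the SNAP-25 family, Snap29 made up 26.7% ± 2.2 in Low and 42.5% ± 0.81 in High. Snap23 made up 32.7% ± 1.7 and 22.2% ± 3.0. Snap29 and Snap23 each had no overlap between fractions, in opposite directions, while Snap47 (39.8% ± 2.4 and 34.7% ± 3.9) overlapped. Within a family the shares are parts of a whole, so a larger share of Snap29 lowers the others. The level of Snap23 itself was higher in High in all 4 animals with TMM scaling (log2 fold change 0.17, and -0.39 with total counts only). Among 6 VAMPs, the share of Vamp3 was 56.5% ± 3.1 in Low and 58.9% ± 2.9 in High. Vamp2 (15.8% ± 1.3 and 16.6% ± 3.0) and Vamp8 (15.0% ± 1.1 and 15.6% ± 3.0) likewise overlapped, and of the 6 only Vamp4, at 11.4% ± 1.5 in Low and 8.09% ± 0.92 in High, did not. These shares are descriptions with no test.

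**Figure D4:**
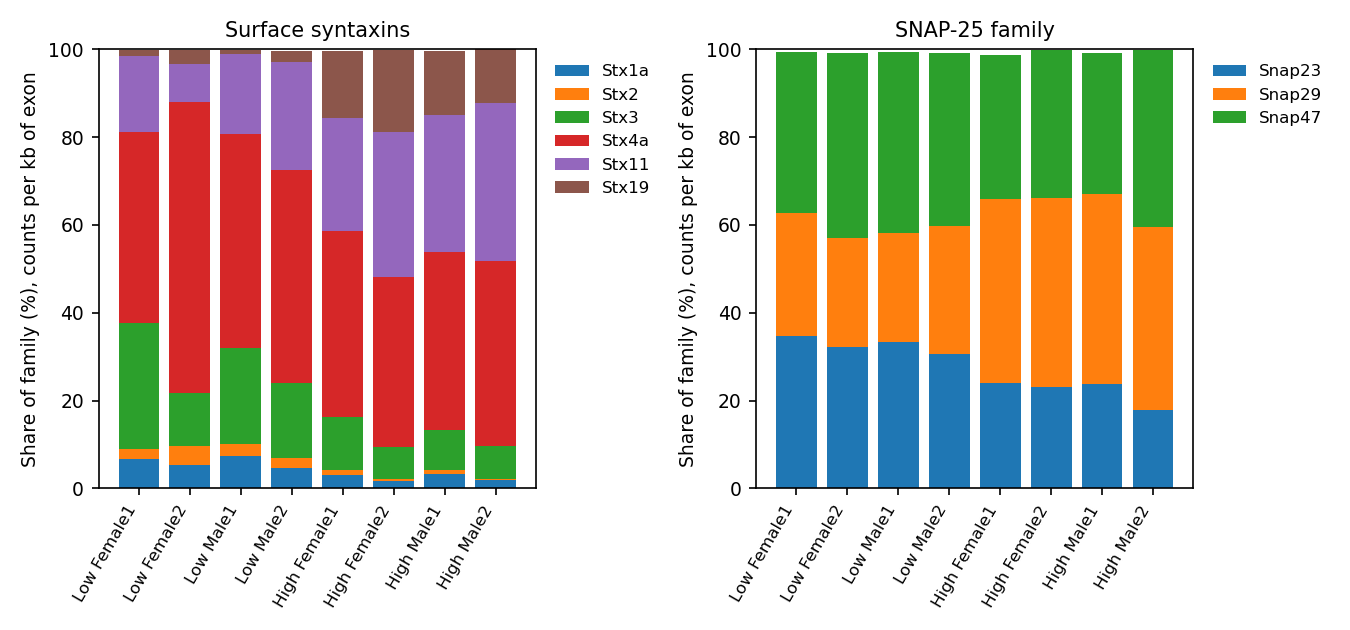
Share of each gene in the counts per kilobase of exon of its family (y axis, percent; stacked bars, 1 per library, grouped by fraction; left, surface syntaxins; right, SNAP-25 family; genes with a mean share under 1% in both fractions are not drawn). Stx19 and Stx11 widen in the High bars of the surface syntaxins, and Snap29 widens from a mean of 26.7% to 42.5% in the SNAP-25 family.

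The SNAREs of the trans-Golgi network and early endosomes were called higher for Stx6 and Vti1a, which act together in traffic from endosomes back to the trans-Golgi network. Stx6 ran from 34.8 to 40.1 CPM in Low and from 48.9 to 74.0 CPM in High (log2 fold change 0.66, SE 0.15, adjusted p = 0.00432). Vti1a ran from 28.6 to 33.2 CPM in Low and from 40 to 58.5 CPM in High (log2 fold change 0.63, SE 0.15, adjusted p = 0.00567). Neither overlapped, and both lost their call with total counts only (adjusted p = 0.498 and 0.740). Their partners in the same complex, Vamp4 (0.38, SE 0.17, adjusted p = 0.0967) and Stx16 (-0.21, SE 0.15, adjusted p = 0.271), were not called. In the paired fit with the replicate block Vamp4 had an adjusted p = 0.0376, and with total counts only Stx16 had 0.000295. The log2 fold change of Vamp4 with total counts only was -0.19 (adjusted p = 0.328).

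The SNAREs of the endoplasmic reticulum and Golgi held 3 genes called higher, 1 lower and 6 not called of 10, beside 23.4% and 25.3% of all genes. Bet1, a SNARE of transport from the endoplasmic reticulum to the Golgi, was at 19.1 to 20.4 CPM in Low and 26.9 to 42.6 in High and rose 1.70-fold (log2 fold change 0.77, SE 0.15, adjusted p = 0.00212). Its partners Sec22b (log2 fold change 0.44, SE 0.11, adjusted p = 0.00774) and Gosr2, or membrin (0.45, SE 0.12, adjusted p = 0.0127), rose 1.36-fold each. These 3 calls were lost with another scaling: with total counts Bet1 had a log2 fold change of 0.21 (adjusted p = 0.307), and Sec22b and Gosr2 each had -0.12 (adjusted p = 0.436 and 0.334). Without a filter on low counts Sec22b (adjusted p = 0.107) and Gosr2 (adjusted p = 0.0991) also lost their calls, at a log2 fold change of 0.40 and 0.41. The fourth partner, the Golgi syntaxin Stx5a, was at 51.4 to 75.5 CPM in Low and 61.1 to 72.3 CPM in High (0.15, SE 0.15, adjusted p = 0.468), and with total counts its log2 fold change was -0.41 (adjusted p = 0.0537).

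Use1 was the only member of this role called lower. With Stx18, Bnip1 and Sec22b it receives vesicles that return from the Golgi to the endoplasmic reticulum. It was at 72.2, 64.7, 79.8 and 81.6 CPM in Low and at 51.1, 44.6, 45.7 and 55.6 CPM in High. Every High library was below every Low one. Use1 fell by 0.59 on the log2 scale (SE 0.13, adjusted p = 0.00367). Stx18 (log2 fold change 0.06, adjusted p = 0.809) and Bnip1 (-0.15, adjusted p = 0.490) were not called. Under total-count scaling all 4 genes of this complex had a negative log2 fold change, Use1 -1.16, Bnip1 -0.72, Stx18 -0.53 and Sec22b -0.12. Exons of Stx18 overlap 1482 bases of Nsg1 and Gm42858 on the other strand. Sec22a (0.35, adjusted p = 0.0933), Bet1l (0.21, adjusted p = 0.378) and Gosr1 (0.01, adjusted p = 0.982) were not called either, and with the replicate block Sec22a had an adjusted p = 0.0301. With total counts only, Bnip1 (adjusted p = 0.00302), Gosr1 (0.00340) and Stx18 (0.00765) passed the test in the lower direction, and Sec22a (-0.23) and Bet1l (-0.34) had a negative log2 fold change without passing it.

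Levels were compared between genes as CPM per kilobase of GENCODE exon, a scale that assumes the counted exons. In Low, Use1 was highest at 33.9 ± 3.5 (SD, n = 4), first in all 4 libraries. It was followed by Ykt6 (26.5 ± 2.1), Napa (25.8 ± 2.8), Vamp3 (25.1 ± 3.7), Vti1b (23 ± 1.5), Stx4a (21.9 ± 1.3) and Stx12 (19.4 ± 1.4), and from Ykt6 to Stx4a each neighbour in this order differed by less than the larger of their SDs. In High, Napa led at 63.5 ± 14.6, then Ykt6 at 55.7 ± 9.5, Vamp3 at 47.5 ± 9.3, Vti1b at 40.9 ± 4.6 and Stx12 at 34.5 ± 8.1. Each neighbour in that order was again within the larger SD, though Ykt6 ranked 2, Vti1b 4 and Stx12 5 in each High library. Use1 ranked between 6 and 8 in the High libraries at 22.4 ± 2.3. Stx19 moved from rank 35 (0.85 ± 0.38) to rank 19 (8.98 ± 1.63), and Stx3 from rank 12 (8.84 ± 3.85) to rank 27 (5.27 ± 0.86).

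**Figure D5:**
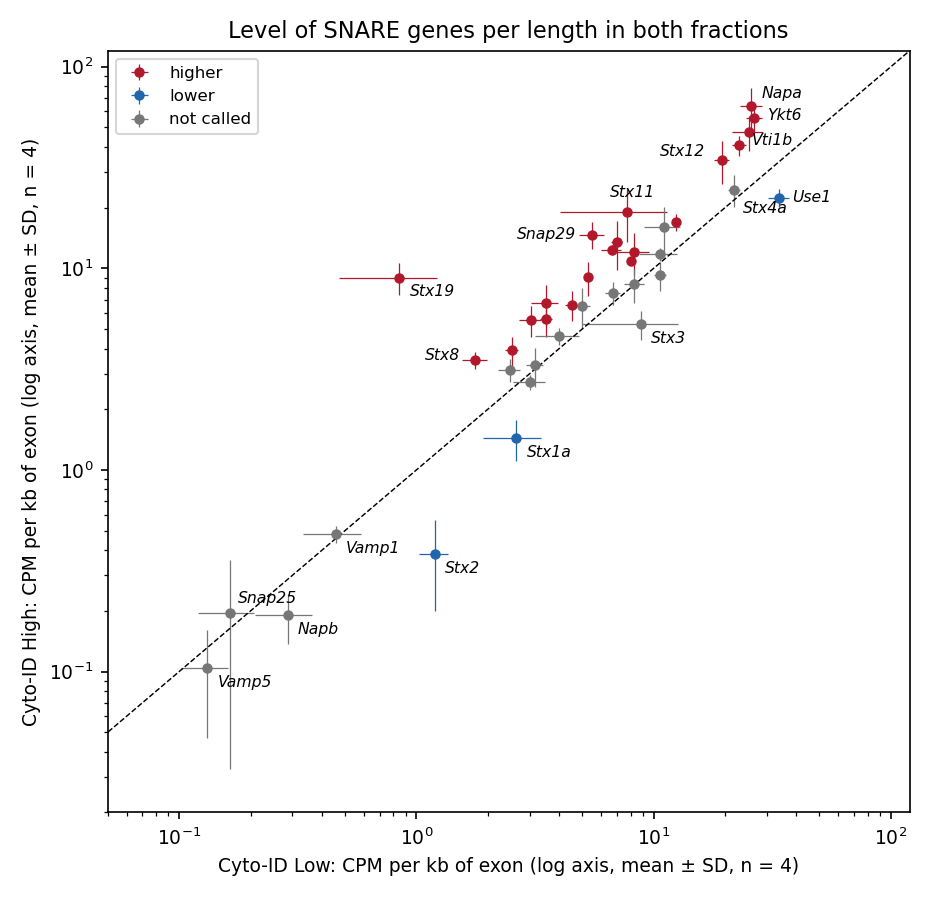
Level of tested SNARE genes per exon length in Low (x axis) and High (y axis), in CPM per kilobase on log axes, as mean ± SD of 4 libraries (dashed line, equal levels; colours, call of the test). Napa and Ykt6 lie at the upper right, Stx19 stands farthest above the line and Use1, Stx1a and Stx2 lie below it.

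The difference between fractions was also tested for dependence on sex, with 2 animals of each sex. Of the 40 members 0 were called for the interaction of sex and fraction, as were 0% of all 17344 genes (19 genes had an unadjusted p under 0.05, and none was a member; edgeR). With the replicate block 0 genes were called and 38 had an unadjusted p under 0.05. The smallest unadjusted p of a member was 0.263. The 19 and 38 genes are far fewer than a share of 0.05 of the 17344 genes, which chance alone would give. The interaction test was thus conservative. With 2 animals a sex, its lack of calls does not show that the sexes act alike.

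Other genes that act on SNAREs were taken by list. The Sec1/Munc18 proteins clasp syntaxins and guide assembly. They were higher for 5 of 8 and lower for 0, beside 23.4% and 25.3% of all genes. Their median log2 fold change was 0.59. On the scale of total counts 0 of the 8 were called in either direction (median 0.01), beside 12.6% of all genes higher and 49.1% lower. With the replicate block Vps45 was called too, for 6 of 8, beside 25.4% of all genes called higher. Vps33b, of an endosomal tethering complex, went from 18.5 ± 2.6 to 32.8 ± 6.7 CPM (SD, n = 4; log2 fold change 0.82, SE 0.18, adjusted p = 0.00427). Scfd1, the partner of Stx5a and Stx18, rose by 0.65 (SE 0.14, adjusted p = 0.00286), and Stxbp2, which binds Stx11 and Stx3, rose by 0.60 (SE 0.16, adjusted p = 0.0101). The exocyst, the surface tether of vesicles, was higher for 3 of 8 and lower for 0, beside 23.4% and 25.3% of all genes. Its median log2 fold change was 0.32, with Exoc6 at 1.19, Exoc5 at 0.71 and Exoc3 at 0.49. Scaled by total counts, 1 was higher (Exoc6, 0.61) and 3 were lower (Exoc1, Exoc4 and Exoc8), with a median of -0.27, and Exoc3 turned to -0.09, counts to be read beside the 12.6% and 49.1% of all genes. With the replicate block 5 were higher and 1 lower, with Exoc2 and Exoc7 added above and Exoc8 below, where 25.4% of all genes were called higher and 28.5% lower.

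Of the 20 SNARE regulators 12 were tested, with 2 higher and 4 lower (median log2 fold change -0.14), a called share near the 48.7% of all genes, and with total counts only 1 higher (Unc13b) and 7 lower (median -0.72), a lower share near the 49.1% of all genes. With the replicate block Snapin was also called higher (adjusted p = 0.000622). Unc13b, a Munc13 protein that primes vesicles, went from 22.1 ± 1.6 to 78.9 ± 12 CPM (log2 fold change 1.83, SE 0.15, adjusted p = 1.83e-05). Stxbp5, or tomosyn, rose by 0.71 (SE 0.16, adjusted p = 0.00539, and 0.387 with total counts only), and Txlna, which binds syntaxins, fell by 0.96 (SE 0.13, adjusted p = 0.000238). Of the synaptotagmins and synaptotagmin-like proteins, 15 of 22 were tested. Of these 3 were higher and 5 lower (median -0.09), beside 23.4% and 25.3% of all genes. With total counts only 2 were higher (Syt2 and Sytl1) and 5 lower (median -0.65), beside 12.6% and 49.1% of all genes. Animal by animal the median of this list was 0.29 (Female1), -0.96 (Female2), 0.16 (Male1) and -1.22 (Male2). The low-level Syt16 lost its call with the replicate block (adjusted p = 0.0535). Syt2, a calcium sensor of exocytosis, went from 1.42 ± 1.1 to 25.7 ± 8.8 CPM (log2 fold change 4.16, SE 0.60, adjusted p = 0.000335). Sytl1, a Rab27 effector, went from 121 ± 21 to 489 ± 110 CPM (2.00, SE 0.19, adjusted p = 3.34e-05), and Syt8 from 33.9 ± 13 to 15.8 ± 2.8 CPM (-1.10, SE 0.27, adjusted p = 0.00733).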

How the data were processed

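RNA of 8 sorted libraries (4 Cyto-ID Low, 4 High) was sequenced. The authors deposited raw counts per gene symbol, a unit that follows from the values, which are whole and sum to another total in every library. The submitters' processing notes name STAR 2.7.3, DESeq2 and the build GRCm38 without their roles. The counting tool, the annotation and the use of strand are not given in the sources used here. The members, roles and lists were chosen with earlier results of these data known.

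The fit used edgeR 4.0.16 and limma 3.58.1 under R 4.3.3. Genes were kept by filterByExpr (17344 of 55276), libraries were scaled by TMM, and High was tested against Low over all 8 libraries by glmQLFit and glmQLFTest in a model that held sex, with Benjamini-Hochberg adjustment over all genes tested at 0.05. CPM values are TMM-scaled. The standard error is the log2 fold change over the root of the F statistic. The code was tested on simulated data. SDs and standard errors hold animal-to-animal spread and counting error together.

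Same-named libraries were taken as pairs because each animal's name stands on 1 library of each fraction. The deviations of paired libraries from their group means correlated across genes, which are not independent replicates, at 0.43 (Female1), 0.32 (Female2), -0.02 (Male1, whose pairing rests on the name) and 0.28 (Male2). Values in every library were given for up to 8 called members per direction with the largest change, the same sign in each of the 4 animals and 5 CPM or more on average, and for a set list of autophagosomal, lysosomal, surface and disassembly genes. Members that the replicate block or total-count scaling moved across the threshold are given by adjusted p. Of the other lists, the 3 largest changes in each direction with at least 5 CPM are named.

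Exon lengths, positions and overlaps came from GENCODE M21 (GRCm38), which matched 53388 symbols and 41 of 41 members. For 9 members exons overlap a gene on the other strand, among them Vti1b (285 bases), Snap47 (307 bases) and Gosr2 (149 bases). Promoters came from RefSeq (GRCm38.p6). The alternatives were DESeq2 size factors, total counts, other filters, limma-voom, robust dispersion, DESeq2 1.42.0, a fit without sex, the replicate block, animals of 1 number only, leaving out each library, and, chosen after seeing the data, leaving out animal Female2 or Male2. The values of 1 member are not reported here, though its test is in the counts of members.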

Additional observations from a re-analysis of the deposited data

Results flagged for a closer look

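In groups of 4 libraries, 1 library was far from the other 3 in 7 of 100 group values examined, where chance alone singles out about 1 in 20. Napa was lowest in Low Female2 at 82.2 CPM (next library 102) and highest in High Male2 at 323 CPM (next 218). Sec22a was lowest in Low Female1 at 10.9 CPM (next 13.4). Vamp1 was highest in Low Female2 at 6.53 CPM (next 4.32), and Vamp3 was highest in Low Male2 at 88.5 CPM (next 67.7). The summed level of stomach markers was 19.8 CPM in Low Female2 (next 1.29) and 117 CPM in High Female2 (next 1.39).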

How the results depend on the processing

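The counts of members called higher and lower (20 and 3) depended most on scaling. Total counts only gave 8 higher and 11 lower with a members' median log2 fold change of -0.089, and the 2 animals numbered 1 gave 24 and 6. All genes were called higher and lower in 12.6% and 49.1% with total counts and in 27.3% and 30.9% with the animals numbered 1. DESeq2 size factors and leaving out animal Male2 each gave a median of 0.53. With total counts the signs turned for the medians of the trans-Golgi role (-0.075), the vesicle VAMPs (-0.060), the cell-surface role (-0.31) and the endoplasmic reticulum and Golgi role (-0.38). Among members called under either scaling they turned for Gosr1 (-0.58), Gosr2 (-0.12), Napg (-0.037), Sec22b (-0.12), Snap23 (-0.39), Snap47 (-0.047), Stx18 (-0.53) and Stx4a (-0.42), and among members called under neither for Stx7, Stx5a, Vamp4, Sec22a, Bet1l, Vamp1 and Snap25 among others. Total counts leave out the TMM factors, which differ between the fractions. In the paired analysis with the animal as a replicate block 23 members were higher and 4 lower, and 0 of the 23 calls were lost. Leaving out 1 library gave 19 to 22 higher, 2 to 4 lower and medians of 0.40 to 0.51. The lower count was 2 without Low Female1, Low Male1 or High Female2. Of the 40 tested members, 14 had the same call in every alternative run and 26 changed in at least 1. The interaction with sex called 0 members in each of its alternatives. Napb, Snap25 and Vamp5 had under 100 counts in every library, where relative counting error is larger.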
